A study of Homo sapiens with 6 samples.

Results

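The 10 genes described here take up, store, export or sense iron, and were read on 6 one-colour Agilent arrays of the human liver tumour line HepG2. They are TFRC, TFR2, TF, FTH1, FTL, HAMP, SLC40A1, SLC11A2, IREB2 and HFE, and their probes were taken as every non-control probe whose gene name on the array is one of these 10 symbols. The rule gave 27 probes, among 41000 gene probes that cover 17521 named genes. For 5 arrays HepG2 cells had received Scutellaria baicalensis extract, made from a medicinal skullcap, at 100 µg/ml for 1, 3, 6, 12 or 24 h, and for 1 array the RNA came from control HepG2 cells. All cells were grown in the same serum-containing medium. The labels give the control no time, and it was placed at 0 h by assumption. The series asks how expression in these cells varies with the time of exposure, and each group held 1 array, so the times cannot be tested singly.

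Cells take up iron when transferrin, the plasma iron carrier encoded by TF, binds the transferrin receptor on the surface and is drawn into endosomes, where SLC11A2 moves the released iron into the cytosol. Iron that is not used is stored in shells of ferritin heavy and light chains, and it leaves the cell through ferroportin, encoded by SLC40A1. Hepatocytes also set iron supply for the whole body, since they secrete transferrin and the hormone hepcidin, encoded by HAMP, which makes ferroportin be degraded. The iron regulatory protein encoded by IREB2 binds stem-loops in the mRNAs of ferritin, ferroportin and the transferrin receptor when iron is low, which blocks translation of ferritin and ferroportin and protects the receptor's mRNA.

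Values below are scaled log2 signals, that is log2 of the background-corrected spot signal minus log2 of the 75th percentile of the same array. That percentile was 697 intensity units for control cells, then 988, 1710, 140, 376 and 1460 after 1, 3, 6, 12 and 24 h. The 6 h array was the dimmest, with 50.6% of its gene spots well above background by the scanner software's flag, against 65.1% to 73.8% on the other 5 arrays. All 11 hepatocyte markers looked at, albumin among them, were well above background on every array. Of 8 blood cell markers, 3 to 6 were, at a median scaled log2 signal between -4.12 and -3.05, and CD79A, CD68 and HBA1 were so on all 6 arrays while HBB was on none. CD79A, a B cell gene, had a scaled log2 signal of 1.56 in control cells. Of 6 endothelial and fibroblast markers, 1 to 3 were, VWF on all 6 arrays, and CDH5, COL1A1 and COL3A1 on no array. Each difference is given with a probe error, the SD expected of 1 probe's log2 difference, estimated from genes with a pair of measured probes. It was 0.35, 0.44, 0.77, 0.68 and 0.69 at 1, 3, 6, 12 and 24 h. It leaves out variation between cultures and arrays, which both probes of a pair share.

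What these arrays can say about each gene depends on its probes. Of the 27 probes, 17 were well above background on all 6 arrays and 2 on none, 9 were saturated on at least 1 array, and 9 were both unsaturated and well above background throughout. Most ferritin probes reached saturation, and their sequences show what they read. The FTL probe below is listed at chr19:54160841-54160900 on the plus strand in the array files, whose genome build is not given in the sources used here, and it was below saturation in the control and at 6 h.
FTL A_32_P155247: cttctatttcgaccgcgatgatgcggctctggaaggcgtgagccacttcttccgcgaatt

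Some FTH1 probes differ from each other by few bases. The 2 shown next, listed at chr11:61488852-61488911 and chr11:61488861-61488920 on the minus strand, overlap over 51 bases, with 4 mismatches between them in capitals. Since both are listed at the same stretch, at least 1 of them does not match it exactly, and which one was not determined. Each FTH1 probe also lists 1 to 3 non-coding RefSeq transcripts among its targets, so its signal may combine FTH1 mRNA with transcripts of related sequence, and FTH1 values are uncertain in that respect.
FTH1 A_24_P58337: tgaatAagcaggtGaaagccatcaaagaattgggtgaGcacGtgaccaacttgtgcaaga
FTH1 A_32_P111565: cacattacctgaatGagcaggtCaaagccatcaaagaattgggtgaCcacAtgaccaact

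HAMP was read by a single probe, shown because the gene had the largest differences among those that 1 unsaturated probe measured on all arrays. Its 60 bases are listed over chr19:40467582-40467730 on the plus strand, a span of 149 bases, so the probe matches spliced RNA.
HAMP A_23_P165162: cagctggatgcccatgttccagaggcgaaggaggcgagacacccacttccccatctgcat

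At the level of genes, each represented by its brightest probe, few of the 10 were 2-fold away from the control. At 1 h 0 of 7 measured genes were, where 2.91% of all measured genes were. At 3 h 1 of 7 was (HAMP, lower), against 6.2% of all genes, and at 6 h 1 of 6 (TFRC, higher), against 32.9%. At 12 h 1 of 7 was (HFE, higher), against 20.9%, and at 24 h 1 of 7 (HAMP, lower), against 16.5%. These shares lie close to or below those of all genes at 6, 12 and 24 h. The median difference of the measured genes was -0.11, 0.42, 0.01, 0.19 and 0.50 at 1, 3, 6, 12 and 24 h, beside -0.06, -0.04, 0.34, 0.23 and 0.03 over all genes. FTH1, FTL and TF do not enter these counts, because their brightest probes were saturated on the control array.

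**Figure D1:**
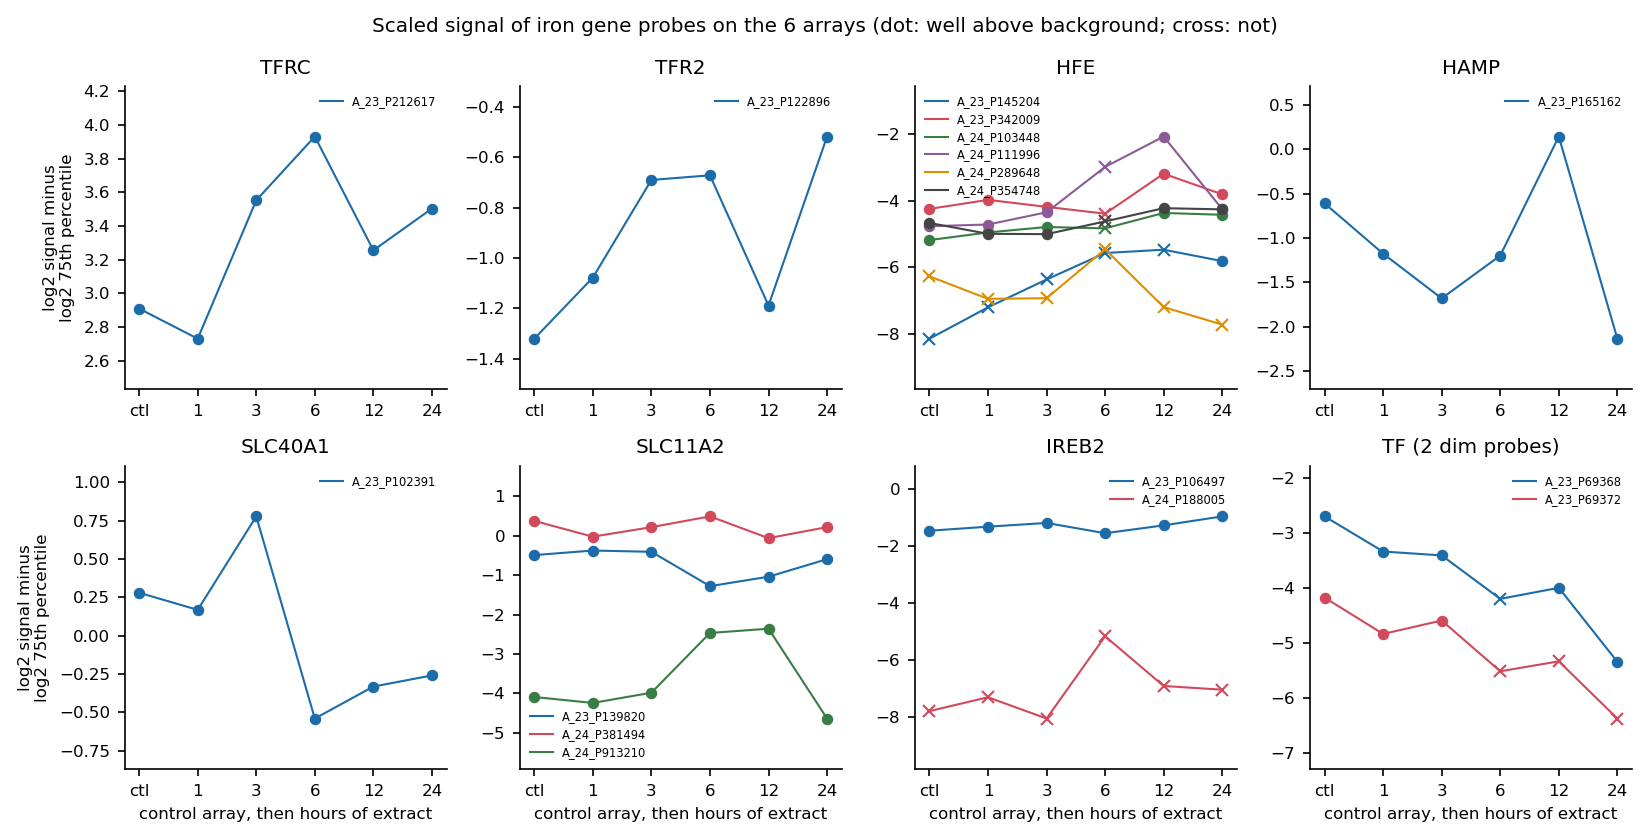
Scaled log2 signal (y axis) of the probes of 8 iron genes in control cells and after 1, 3, 6, 12 and 24 h of extract (x axis, evenly spaced). Dots are values well above background and crosses values that are not; as scaled here TFRC is highest at 6 h, HAMP is highest at 12 h and lowest at 24 h, and TF A_23_P69368 lies below its control value on the 4 treated arrays where it is well above background.

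Among the receptors, TFRC, which carries transferrin-bound iron into most cells, stood above the control at 3, 6, 12 and 24 h. Its scaled log2 signal was 2.91 in control cells, then 2.73, 3.55, 3.93, 3.26 and 3.50 after 1, 3, 6, 12 and 24 h. The treated array was below the control at 1 h only, and the 6 h array was the highest as scaled here. The difference was 1.02 ± 0.77 at 6 h, or 2.03-fold higher, and 0.64 ± 0.44 at 3 h, both larger than the probe error. It was within that error at 1, 12 and 24 h, with -0.18, 0.35 and 0.59. TFRC has 1 probe spotted 10 times on each array, so its spots can be compared directly. At 24 h 10 spots ranged from 15700 to 17800 intensity units, and on the control array 8 unflagged spots ranged from 5040 to 5380, before scaling. The SD of log2 signal between its spots was 0.032 to 0.067 on the 6 arrays, far below the probe error. The direction at 6 h depended on the background correction, since normexp on the mean and local background signals gave -0.47, while quantile normalization gave 0.47. At 12 h these settings gave -0.06 and -0.02. The highest array was that of 3 h under both of them, at 0.62 and 0.66. Under the spike-in scaling it was that of 24 h, with 1.72, 0.865 and 1.82 at 3, 6 and 24 h. The median difference of all genes under the spike-in scaling was itself 1.04, 0.185 and 1.26 at those times.

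TFR2, the second transferrin receptor, is expressed mainly in liver, where it takes part in iron sensing. Its scaled log2 signal was -1.32 in control cells, then -1.08, -0.69, -0.67, -1.19 and -0.52 after 1, 3, 6, 12 and 24 h. All 5 treated arrays were above the control, the 24 h array most, and the sign was the same under the 5 other scalings and background corrections run. The difference was 0.63 ± 0.44 at 3 h and 0.80 ± 0.69 at 24 h, both above the probe error, and 0.24, 0.65 and 0.13 at 1, 6 and 12 h, within it.

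HFE encodes the membrane protein that binds transferrin receptors and takes part in the control of hepcidin, and is mutated in hereditary haemochromatosis. It had 6 probes, all dim. One of them, A_24_P289648, was well above background on no array, and none was at 6 h, so no HFE difference is given there. The probe with the highest mean, A_24_P111996, had -4.77 in control cells, then -4.72, -4.35, -2.08 and -4.26 after 1, 3, 12 and 24 h. The 12 h array stands apart from the others, with a difference of 2.69 ± 0.68, or 6.43-fold higher. In control cells and at 1, 3 and 24 h A_23_P342009 was the brighter probe, at -4.25, -3.98, -4.19 and -3.81. A_24_P111996 thus has the highest mean only through its 6 h and 12 h values, so the choice of probe favours a large 12 h difference. The other 3 probes measured at 12 h were A_23_P342009, A_24_P103448 and A_24_P354748. They were higher by 1.05, 0.81 and 0.44, so the probes share the sign and not the size. The last 2 are listed under transcripts that are not among the RefSeq mRNAs of HFE. Their unscaled signals at 12 h were 18.2 and 20.1 intensity units. At 12 h all 4 measured HFE probes were higher under every setting run. At 24 h the same 4 probes were higher by 0.41 to 0.76, near the error of 0.69. However, normexp gave -0.365 to -0.021 at 24 h, and the authors' deposited values gave -0.276 for A_24_P354748. The spike-in scaling gave 1.64 to 1.99 at 24 h, beside a median of 1.26 over all genes. At 1 and 3 h the differences of these 4 probes lay between -0.33 and 0.42. The remaining probe, A_23_P145204, was well above background at 24 h only, where it was at least 1.04-fold higher than in the control.

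HAMP, the hepcidin gene, was lower than in the control on 4 of the 5 treated arrays. Its unscaled signal was 457 intensity units in control cells, then 437, 533, 61.0, 416 and 332 after 1, 3, 6, 12 and 24 h. After scaling the log2 signal was -0.61 in the control and -1.18, -1.68, -1.20, 0.14 and -2.14 at those times, so the 12 h array was the only treated one above the control. The difference was -1.53 ± 0.69 at 24 h, or 2.88-fold lower, and -1.07 ± 0.44 at 3 h, or 2.10-fold lower. The differences at 1, 6 and 12 h were -0.57 ± 0.35, -0.59 ± 0.77 and 0.75 ± 0.68. HAMP was lower at 1 and 24 h under all 5 other settings. Scaling to the E1A spike-in spots gave -0.30 at 24 h and 0.01 at 3 h, and normexp gave 0.42 at 6 h. Under the spike-in scaling the median of all genes was itself 1.08 higher at 3 h and 1.23 higher at 24 h than under the 75th percentile, so HAMP was lower relative to that median in both.

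SLC40A1 encodes ferroportin, the only known exporter of iron from mammalian cells and the protein that hepcidin acts on. Its scaled log2 signal was 0.28 in control cells, then 0.17, 0.78, -0.54, -0.33 and -0.26 after 1, 3, 6, 12 and 24 h. The 3 h array was the highest and the 3 later arrays were the lowest. The difference was 0.50 ± 0.44 at 3 h and -0.82 ± 0.77 at 6 h, just over the probe error, and -0.61 and -0.54 at 12 and 24 h, within it. No difference of SLC40A1 reached 2-fold as scaled here, while the spike-in scaling gave 1.58 at 3 h and 0.69 at 24 h. The median of all genes under the spike-in scaling was 1.04 and 1.26 at these times.

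SLC11A2, the endosomal and intestinal transporter of ferrous iron, had 3 probes that did not agree. Its brightest probe, A_24_P381494, had 0.38 in control cells, then -0.02, 0.22, 0.49, -0.06 and 0.22 after 1, 3, 6, 12 and 24 h, and none of these differences exceeded 0.44 in size. A_23_P139820, which is listed over 2419 bases of chromosome 12 and so spans a splice junction, had differences of -0.79 at 6 h and -0.55 at 12 h. The dim probe A_24_P913210 had -4.09 in the control and -4.25, -3.98, -2.47, -2.36 and -4.64. Its 6 and 12 h arrays stand above the other 4, with differences of 1.63 ± 0.77 and 1.73 ± 0.68. Its own accession is not among the RefSeq transcripts of SLC11A2, and its unscaled signal at 6 h was 25.3 intensity units. Under the settings tried, this probe stayed at least 1.43 higher at 6 and 12 h.

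IREB2, the iron regulatory protein, stayed within the probe error at every time as scaled here. Its measured probe, A_23_P106497, had -1.47 in control cells, then -1.33, -1.19, -1.56, -1.28 and -0.96 after 1, 3, 6, 12 and 24 h. The differences ran from -0.09 at 6 h to 0.50 at 24 h. Other settings took it past that error, with 1.08 at 6 h under normexp and 1.35 and 1.73 at 3 and 24 h under the spike-in scaling. Those spike-in values stood beside medians of 1.04 and 1.26 over all genes. The other IREB2 probe was well above background on no array.

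Ferritin, the storage shell, was hard to measure because most of its probes were at the scanner's ceiling. FTH1 A_32_P342064 and FTL A_23_P50498 were saturated on all 6 arrays, at 59100 to 61700 and 53100 to 56000 intensity units, and FTH1 A_24_P58337 and A_32_P111565 were unsaturated at 6 h only. A_24_P58337 also carried an outlier flag at 24 h and was left out there. Where a probe is saturated on both arrays, its scaled difference would show the scaling alone, and no fold is given.

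**Figure D2:**
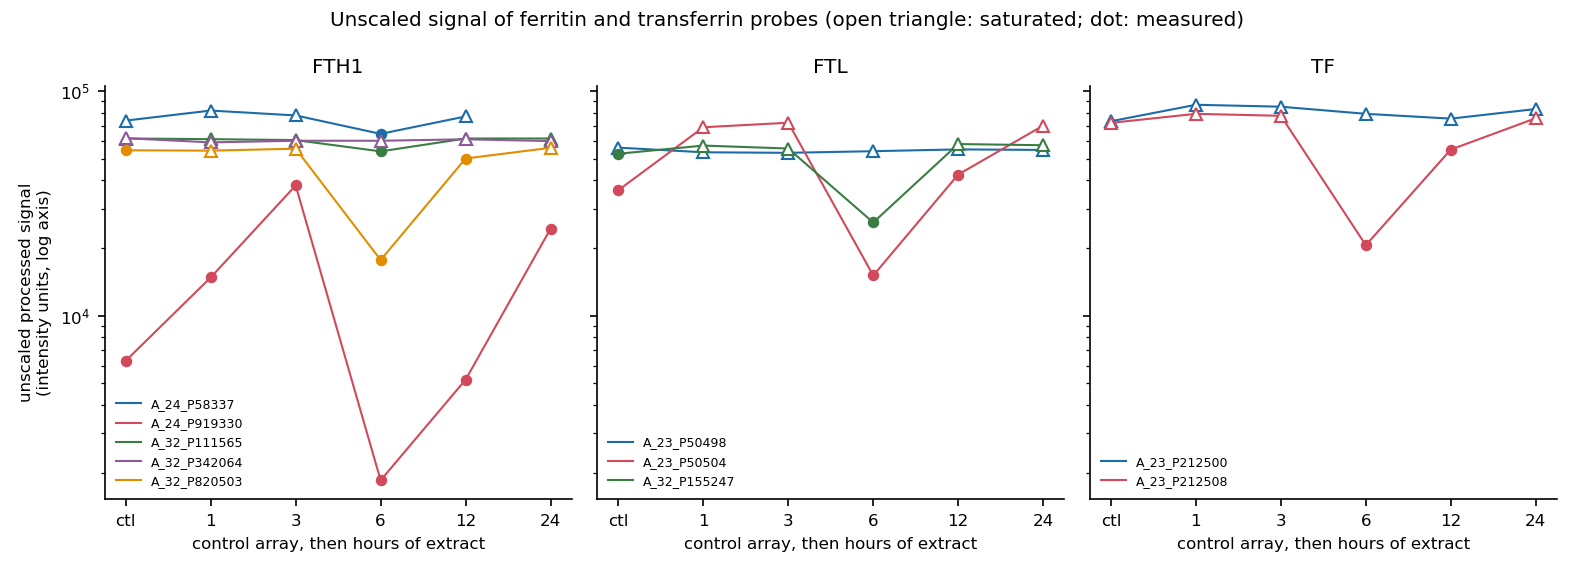
Unscaled processed signal (y axis, intensity units, log axis) of the FTH1 and FTL probes and of the 2 bright TF probes in control cells and after 1, 3, 6, 12 and 24 h of extract (x axis). Open triangles are saturated and dots are not; 3 probes are saturated on all 6 arrays, and FTH1 A_24_P919330 is the one that stays below saturation on all of them.

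The 1 ferritin probe measured on all arrays, FTH1 A_24_P919330, had a scaled log2 signal of 3.18 in control cells, then 3.90, 4.47, 3.72, 3.79 and 4.06 after 1, 3, 6, 12 and 24 h. All 5 treated arrays were above the control and the 3 h array was the highest. The differences at 1, 3 and 24 h were 0.73 ± 0.35, 1.30 ± 0.44 and 0.89 ± 0.69, each larger than the probe error, and those at 6 and 12 h were 0.55 and 0.61, within it. This probe lists 3 non-coding transcripts besides FTH1. FTH1 A_32_P820503 had no saturation flag in the control and at 6 and 12 h, where it was higher by 0.69 and 0.77. Its control signal of 54500 intensity units lay within the 54300 to 55900 at which it was saturated on other arrays and its raw signals at 6 and 12 h were lower than in the control, at 17700 and 50100, so the direction rests on the scaling. Under normexp its 6 h difference was -0.87.

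FTL, the light chain, was measured by A_23_P50504 at 6 and 12 h and by A_32_P155247 at 6 h. The first had 5.70 in the control, 6.75 at 6 h and 6.82 at 12 h, differences of 1.05 ± 0.77 and 1.12 ± 0.68. At 1 h it was saturated and at least 1.34-fold higher than in the control. The second had 7.54 at 6 h and 6.24 in the control, 1.30 ± 0.77 higher, and at 12 h was saturated and at least 2.05-fold higher as scaled. Its unscaled signal was 52600 intensity units in the control and 58100 at 12 h. That control signal lay just under the 55500 to 58100 at which this probe was saturated. These FTL differences and bounds rest on the scaling. Quantile normalization left 0.08 and 0.10 at 6 h for the 2 FTL probes and 0.31 for the first at 12 h, and it left -0.22 and 0.03 for FTH1 A_32_P820503 at 6 and 12 h. Normexp gave -0.56 and -0.25 for the 2 FTL probes at 6 h and -0.89 for FTH1 A_24_P919330. At 1, 3 and 24 h FTH1 A_24_P919330 was higher by 0.64 or more under every setting run.

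TF, a main secretory product of hepatocytes, had 4 probes of 2 kinds. Both probes of the RefSeq TF mRNA were near the ceiling. A_23_P212500 was saturated on all 6 arrays, and A_23_P212508 was unsaturated at 6 and 12 h but saturated in the control, so no difference of TF mRNA is given. The other 2 probes, A_23_P69368 and A_23_P69372, are listed at chr3:134976129-134976188 and chr3:134975782-134975841, under a transcript that is not among the RefSeq mRNAs of TF. Their signal need not follow TF mRNA.

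The dim TF probe A_23_P69368 had a scaled log2 signal of -2.69 in control cells, then -3.33, -3.40, -3.99 and -5.33 after 1, 3, 12 and 24 h. Every treated array was below the control. The differences at 1, 3, 12 and 24 h were -0.64 ± 0.35, -0.71 ± 0.44, -1.30 ± 0.68 and -2.64 ± 0.69, the last being 6.25-fold lower. At 6 h the probe was not well above background. Taking the array's lowest signal well above background as its limit, it was at least 1.56-fold lower than in the control. A_23_P69372 had differences of -0.66 and -0.42 at 1 and 3 h. By the same kind of limit it was at least 1.84-fold lower at 12 h and at least 4.52-fold lower at 24 h. At 24 h A_23_P69368 had -1.42 under the spike-in scaling and -1.57 under normexp. These 2 probes were lower at 1 h, and A_23_P69368 at 24 h, under all settings run. At 3 h the spike-in scaling gave 0.37 and 0.66, beside a median of 1.04 over all genes. Normexp gave 0.55 for A_23_P69368 at 12 h.

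**Figure D3:**
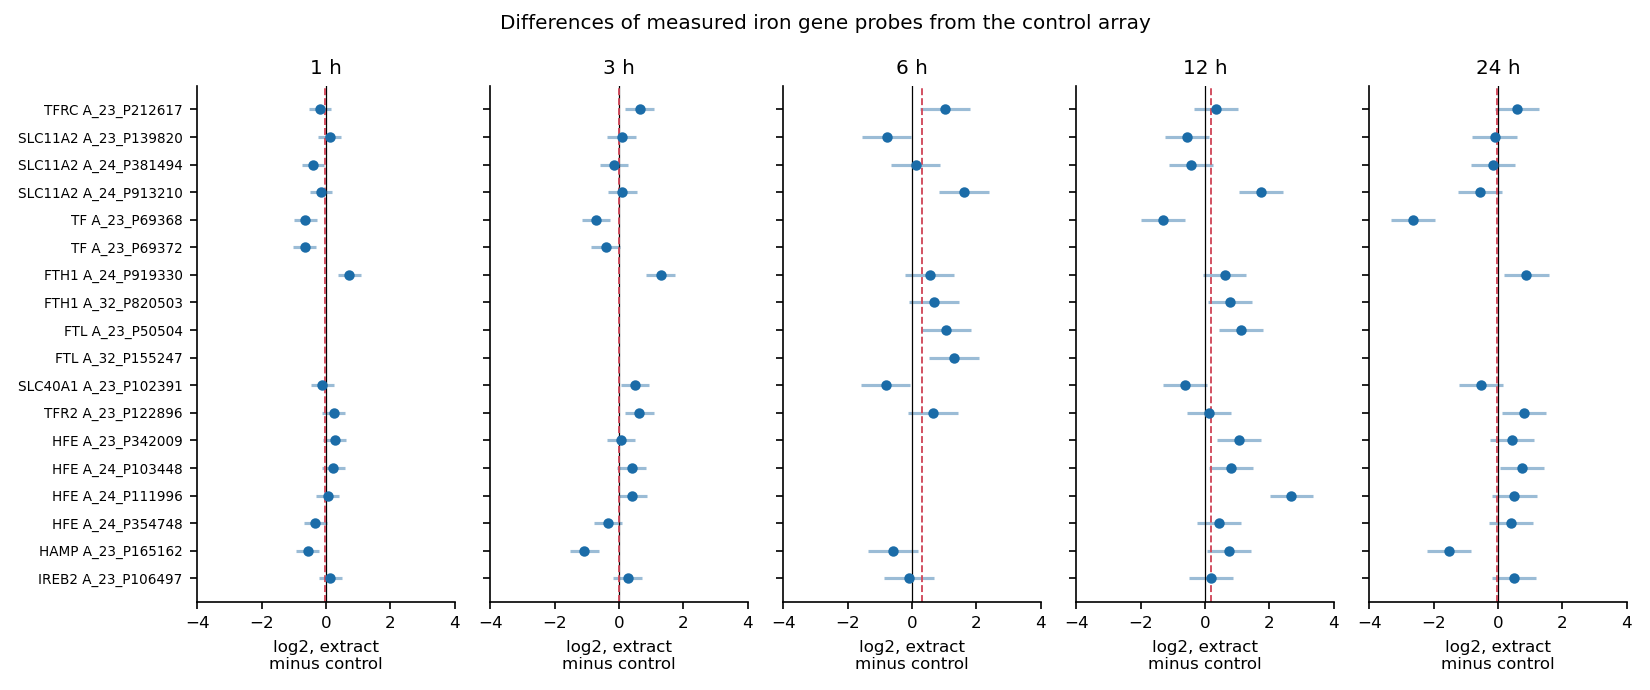
Log2 difference of each treated array from the control (x axis) for every iron gene probe measured on both arrays (rows), one panel per time. Bars are the probe error (SD, 0.35 to 0.77), the solid line is 0 and the dashed line the median of all measured probes; the dim TF probe at 24 h and HFE A_24_P111996 at 12 h lie farthest from 0.

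Counted by probe, 0 of 15 measured probes were 2-fold higher and 0 lower at 1 h, where 2.91% and 0.922% of all measured probes were. At 3 h 1 of 15 was higher and 1 lower, beside 4.85% and 4.56%. At 6 h 4 of 12 were higher and 0 lower, beside 23.5% and 10.8%. At 12 h 4 of 16 were higher and 1 lower, beside 13.5% and 10.1%, and at 24 h 0 of 14 were higher and 2 lower, beside 8.78% and 13.4%. Probes of 1 gene are read on the same RNA and are not independent.

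A trend over time was tested with limma as the slope on log2(hours + 1) over the 6 arrays, in 28305 probes, with Benjamini-Hochberg adjustment over all of them. With 4 residual degrees of freedom, its error term is the distance of single arrays from a fitted line and holds no replicate variation. Of the 17 iron gene probes tested 0 had an adjusted p under 0.05, where 0.0% of all probes did, and 2 had an unadjusted p under 0.05, where 11.3% of all did. These were the dim TF probes. A_23_P69368 had a fitted change to 24 h of -2.31 ± 0.49 (SE), with an adjusted p of 0.235 in limma. A_23_P69372 had a negative slope with an adjusted p of 0.268. It was not well above background at 6, 12 and 24 h, so its fitted change has no exact size.

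The lines of 11 of the 17 probes rose and those of 6 fell. HAMP had -0.50 ± 0.86 (SE), TFRC 0.72 ± 0.51 and TFR2 0.55 ± 0.45. A fit without the dim 6 h and 12 h arrays, added after the data were seen, left 4 arrays and 2 residual degrees of freedom. It dropped the 12 h array, the only treated one on which HAMP was above the control as scaled, so its HAMP slope depends on that choice. It called 8.73% of all probes and 3 of the same 17, all falling. In that limma fit A_23_P69368 of TF had -2.60 ± 0.39 (SE, adjusted p = 0.009) and HAMP -1.46 ± 0.38 (adjusted p = 0.0498). The third call was A_23_P69372 of TF (adjusted p = 0.0224), whose slope rests on a 24 h value that was not well above background.

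For the 6 genes whose brightest probe was measured on all arrays, likeness was described by Pearson's r over the 6 arrays among 10391 genes measured likewise. The highest r of so many genes over 6 points is large by selection, and the points share each array's scaling, so no test is given. NOL8 and FBXL16 were most like TFRC, both with r = 0.993. ZNF263 (0.988) was among the most like TFR2, and CEACAM1 (0.986) and TANC1 (0.969) were most like HAMP. For SLC40A1 they were SNRNP27 (0.985) and ZNF236 (0.979), for SLC11A2 TMEM59 (0.972) and KIF21A (0.953), and for IREB2 SFXN1 (0.988) and VPS8 (0.986). Among the 6 genes themselves the highest r was 0.766, between TFRC and TFR2, and the lowest was -0.835, between TFR2 and HAMP.

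For 6 lists of other iron and haem genes the same differences were taken, and 0 of their tested probes passed the trend test. The list of hepcidin control by BMP, SMAD and IL6 signalling held ligands, receptors and transcription factors that switch HAMP on in hepatocytes, and also inhibitors of that signalling such as TMPRSS6, SMAD6 and SMAD7. At 6 h 6 of its 11 measured genes were 2-fold lower and 1 higher, beside 10.1% lower and 22.8% higher of all genes, and its median was -1.03, beside 0.34 over all genes. At 12 h 5 of 16 were lower and 0 higher, beside 7.82% and 13.0%, with a median of -0.66 beside 0.23. At 24 h 2 of 16 were lower and 1 higher, beside 9.14% and 7.37%, with a median of -0.07.

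BMPR1A, a BMP receptor, had log2 differences of -2.69, -1.23 and -0.43 at 6, 12 and 24 h by its brightest probe. Its other 2 probes were not measured at 6 h, and had -1.72 and -2.02 at 12 h and 0.06 and 0.01 at 24 h. SMAD5, which BMP receptors phosphorylate, had -2.43, -2.17 and -1.97 at 6, 12 and 24 h. SMAD4, the common partner of the receptor-activated SMADs, had -2.43 at 12 h and -1.05 at 24 h. SMAD6, an inhibitor of BMP signalling, was dim, at -3.83 in control cells, and had -0.47 at 12 h and 1.12 at 24 h. The inhibitor SMAD7 had -1.75 at 6 h and -1.26 at 12 h, and the ligand BMP6 was 1.24 higher at 6 h. The list's counts depended on the background correction. At 6 h normexp gave 1 of 11 lower and 2 higher, with a median of -0.24 beside -0.04 over all genes. Quantile normalization gave 7 lower and the spike-in scaling 6, with medians of -1.03 and -1.19 beside 0.15 and 0.185 over all genes. At 12 h normexp gave 1 of 16 lower and 2 higher, with a median of -0.26 beside 0.36 over all genes. The spike-in scaling gave 3 lower and 1 higher at 12 h, with a median of -0.37 beside 0.51. At 24 h the spike-in scaling gave 10 of 16 higher and 0 lower, with a median of 1.16 beside 1.26 over all genes. HAMP itself had -0.59 at 6 h and 0.75 at 12 h.

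The list of mitochondrial iron and iron-sulfur clusters had 6 of 19 measured genes 2-fold higher at 6 h and 5 of 19 at 12 h, beside 22.8% and 13.0% of all genes, with none lower. Its medians at these times were 0.66 and 0.60, beside 0.34 and 0.23 over all genes. BOLA3, which helps deliver iron-sulfur clusters, was higher by 1.75 at 6 h and FDXR, the reductase that feeds electrons to cluster assembly, by 1.68. Under quantile normalization 1 of the 19 was 2-fold higher at each of these times, and under normexp the median at 6 h was -0.23. At 24 h NUBP2, a scaffold of cytosolic cluster assembly, was 1.09 higher, and ISCA1, a mitochondrial assembly factor, 0.88. The mitochondrial iron importer SLC25A37 had -1.32 at 24 h by its brightest probe, whereas 2 other probes had 0.63 and 1.60.

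**Figure D4:**
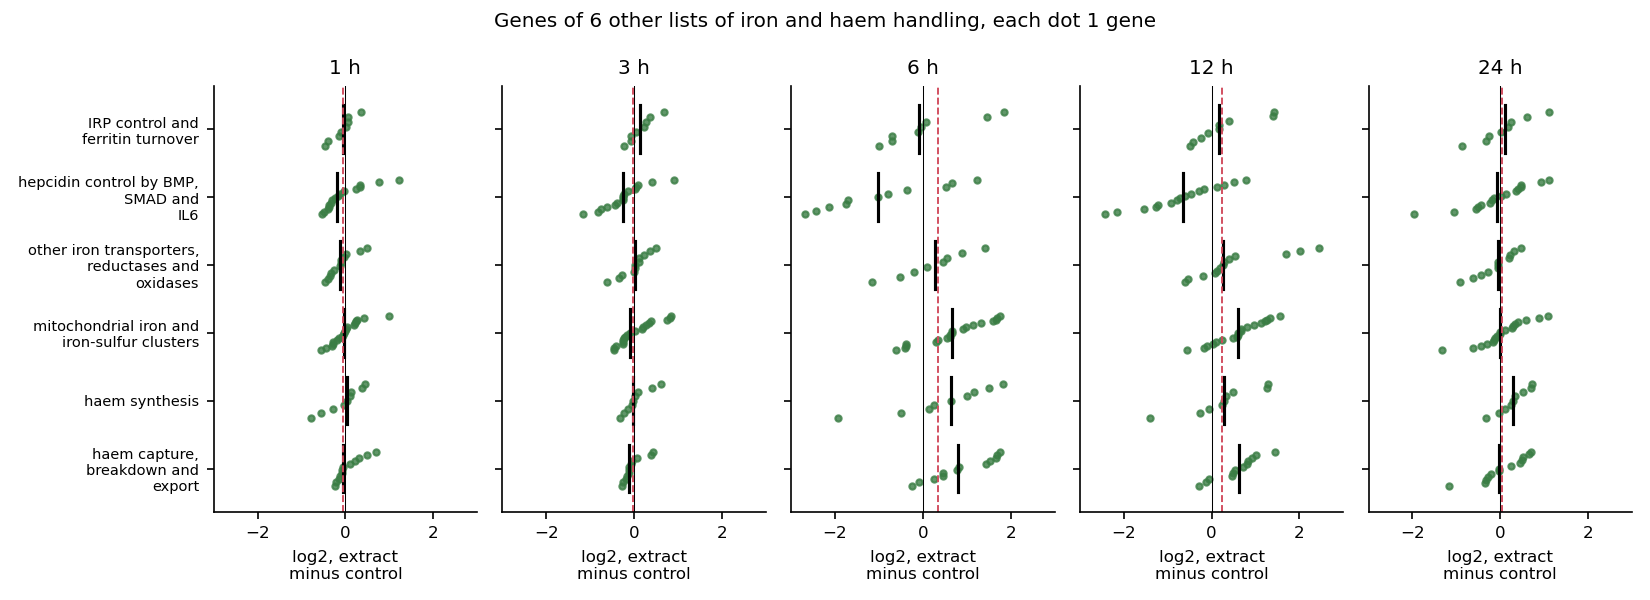
Log2 difference from the control (x axis) of the measured genes of 6 lists of iron and haem handling (rows), one panel per time. Each dot is 1 gene by its brightest probe, the black bar is the list's median and the dashed line the median of all genes; the hepcidin control list has its lowest median, -1.03, at 6 h.

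In the list of haem capture, breakdown and export 5 of 12 measured genes were 2-fold higher at 6 h and 0 lower, beside 22.8% and 10.1% of all genes. Its median was 0.80, beside 0.34 over all genes. HMOX1, the inducible enzyme that frees iron from haem, had 1.69, 0.92 and -0.34 at 6, 12 and 24 h. SLC46A1, a folate and haem transporter, was 1.76 higher at 6 h. HP, the plasma protein that binds free haemoglobin, had 1.44 at 6 h and -1.17 at 24 h. Its probe was saturated on 2 arrays. Its control value of 6.31 was next to the 6.33 of the saturated FTL A_23_P50498, so its differences rest on the scaling. Under array medians and quantile normalization 0 of the 13 genes of this list measured at 24 h were 2-fold lower. Under quantile normalization 2 of the 12 were 2-fold higher at 6 h, and under normexp the median was -0.05. Among the 9 genes of haem synthesis 3 were higher and 1 lower at 6 h, shares not far from the 22.8% and 10.1% of all genes. CPOX, a late enzyme of the pathway, had -1.93 at 6 h and 0.73 at 24 h.

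The list of IRP control and ferritin turnover had 2 of 8 genes higher and 1 lower at 6 h, beside 22.8% and 10.1% of all genes, and 1 of 8 higher at 24 h, beside 7.37%. These shares are near those of all genes. NCOA4, the receptor that takes ferritin to lysosomes, was the gene higher at 24 h, by 1.11, and its other probe was 0.91 higher. CISD1, an outer mitochondrial membrane protein with an iron-sulfur cluster, was 1.84 higher at 6 h. PCBP2, an iron chaperone for ferritin, had 1.46 at 6 h by its brightest probe, while its other 2 probes had -0.58 and -0.45. Among the other transporters, reductases and oxidases 1 of 8 genes was higher and 1 lower at 6 h, beside 22.8% and 10.1%, and 3 of 13 were higher at 12 h, beside 13.0%. At 24 h 0 of 11 were 2-fold away, beside 16.5% of all genes. STEAP3, the endosomal reductase that works with the transferrin receptor, had -1.17 at 6 h by its brightest probe and -0.01 by the other. SLC22A17, a receptor for the siderophore-binding protein LCN2, was 1.42 higher at 6 h and 2.46 higher at 12 h. Its probe was dim, at -4.05 in control cells.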

How the data were processed

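Per the file headers, each deposited scanner file lists spot intensity, including a processed signal already corrected for background, and its values had not been scaled between arrays. Flags for saturation, outliers and signal well above background came from the same files. Per the labels' protocols, RNeasy-purified RNA was linearly amplified and labelled; the labels name Cy5, although the files hold green-channel columns. The scanner software's version is not given in the sources used here.

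The 1639 control spots per array and flagged outlier spots were left out, spots of a probe were averaged as log2, and the array's 75th percentile over probes was subtracted. Differences are treated minus control for probes well above background on both arrays and saturated on neither. Bounds use the saturated value or the lowest signal well above background on the array. The second is a working limit and not a strict one, since HFE A_24_P111996 at 6 h lay above it without the flag. Probes were named by accession, then by gene name or synonym, through RefSeq's GRCh38.p14 table (26810 of 41000), and a gene is its brightest probe. Probe sequences and coordinates are those of the array files. The trend used limma 3.58.1 in R 4.3.3, on probes well above background on at least 3 arrays and saturated on fewer than 4, and was checked on simulated data. FTH1 A_32_P820503 and FTL A_23_P50504 entered that fit with 3 saturated arrays each.

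The authors' deposited table of linear intensity (35646 probes) served as an alternative, floored at 1. Other alternatives were the array median, quantile normalization, E1A spike-in spots, normexp with an offset of 50, other filters, other time scales and leaving out arrays. Named genes were all 10 members, per list up to 3 genes with the largest difference at 24 h and 2 at 6 h, and per measured member the 2 most alike genes; some items this would name are not reported here. SMAD7 and BMP6 were named outside this rule. The members and lists were chosen with earlier results of these data known. The number of arrays limits the precision.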

Additional observations from a re-analysis of the deposited data

How the results depend on the processing

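With 1 array per group, no setting shows a spread between replicates. The count of iron genes at least 2-fold from the control was 0 at 1 h under every setting. It was 1 at 3 h, but 5 under spike-in scaling, 0 under normexp, 2 by the median over a gene's probes and 4 without the filter on dim or saturated probes. It was 1 at 6 h, but 0 under quantile normalization, spike-in scaling and the authors' deposited values, 2 under normexp, 2 by the median over probes and 5 without the filter. It was 1 at 12 h, but 2 under spike-in scaling and 2 by the median over probes. It was 1 at 24 h, but 5 under spike-in scaling, 2 by the median over probes and 3 without the filter. Under spike-in scaling the median difference of all genes was itself 1.04 at 3 h and 1.26 at 24 h. Most measured genes were thus 2-fold higher there, and the counts of 5 are not particular to the iron genes. Shares of all genes under the other settings are not given here. Scaling to array medians changed none of the counts of iron genes. Differences relative to the median of all genes, an alternative added after seeing the data, left the counts the same but changed the gene at 6 h. That median was 0.34 at 6 h, so relative to it TFRC (1.02) was no longer 2-fold higher and SLC40A1 (-0.82) was 2-fold lower.

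Among differences of at least 2-fold, the sign turned for TFRC (-0.465), FTL A_23_P50504 (-0.558) and FTL A_32_P155247 (-0.252) at 6 h and for TF A_23_P69368 at 12 h (0.553) under normexp, and for HAMP at 3 h under spike-in scaling (0.007). The cause was not tested. Over all 72 single differences, of any size, the sign turned for 22 under normexp, 13 under spike-in scaling, 3 with the authors' values, 2 under quantile normalization and 2 with array medians. Differences that moved by less than the probe error, whether or not the sign turned, numbered 52, 43, 71, 67 and 72 under these settings. The limma trend test called 0 of the iron gene probes under each planned setting; when single arrays were left out it also called 0, and the lowest adjusted p lay between 0.139 and 0.798. It called 3 without the 6 h and 12 h arrays together. No paired analysis was possible because each group holds 1 array. Saturation limits FTH1, FTL and TF, and low signal limits HFE.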
